A study of Homo sapiens with 8 samples.

Results

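The genes described here encode the vacuolar proton pump (V-ATPase) and a set of lysosomal membrane proteins. They were chosen by symbol: every ATP6V0 and ATP6V1 subunit gene, the accessory genes ATP6AP1 and ATP6AP2, and LAMP1, LAMP2, SCARB2, NPC1, MCOLN1, CTNS, CD63 and TMEM192. This gave 32 of the 60664 genes in the count tables, of which 9 encode V0 subunits, 13 V1 subunits, 2 accessory subunits and 8 lysosomal membrane proteins. Their RNA was measured by APEX-seq, in which the engineered peroxidase APEX2 attaches biotin to RNA close to it inside living cells and the biotinylated RNA is collected on streptavidin and sequenced. All 8 libraries came from HEK293T, a transformed line from human embryonic kidney, expressing APEX2. In 4 libraries the enzyme sat in the nucleus (NLS) and in 4 at the outer mitochondrial membrane (OMM), and each compartment had 2 labelled libraries and 2 unlabelled controls. The controls hold what the pull-down recovers from unlabelled cells and do not stand for whole-cell RNA. The sources used here do not give the promoter that drives APEX2 or whether the line is 1 clone.

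The V-ATPase uses ATP to pump protons into lysosomes, endosomes and the Golgi. Its V1 part is a soluble, cytosolic complex that hydrolyses ATP, and its V0 part is a membrane-embedded complex whose ring of proteolipid subunits carries the protons. Messages for V1 subunits are translated on free ribosomes, whereas most V0 subunits, the accessory subunits and the lysosomal membrane proteins are made at the endoplasmic reticulum, which touches the outer mitochondrial membrane. The question put to these genes was therefore whether membrane V0 and cytosolic V1 messages were recovered differently when labelling took place in the nucleus or at the mitochondrial surface.

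Codons with thymine as the middle base all encode hydrophobic residues, so a stretch rich in them marks a likely membrane span or signal peptide. The windows of 21 codons (63 nt) with the most such codons are shown for members on which the comparisons turn, 5′ to 3′ on the coding strand, from GENCODE 29 transcripts on GRCh38, with each middle thymine in capitals. They belong to ATP6V0A2 (chr12:123712318-123761755, + strand, codons 787 to 807), ATP6V0C (chr16:2513870-2520218, + strand, codons 127 to 147), SCARB2 (chr4:76158733-76234536, − strand, codons 433 to 453), LAMP2 (chrX:120427827-120469365, − strand, codons 374 to 394), ATP6AP2 (chrX:40579372-40606848, + strand, codons 303 to 323), and, for V1, ATP6V1A (chr3:113747019-113812056, + strand, codons 188 to 208), ATP6V1F (chr7:128862826-128865844, + strand, codons 54 to 74) and ATP6V1G1 (chr9:114587746-114598373, + strand, codons 83 to 103).
ATP6V0A2: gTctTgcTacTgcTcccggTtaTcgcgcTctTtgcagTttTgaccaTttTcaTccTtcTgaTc
ATP6V0C: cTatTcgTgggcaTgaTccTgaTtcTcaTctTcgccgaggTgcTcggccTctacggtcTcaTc
SCARB2: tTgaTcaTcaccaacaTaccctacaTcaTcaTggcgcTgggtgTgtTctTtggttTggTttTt
LAMP2: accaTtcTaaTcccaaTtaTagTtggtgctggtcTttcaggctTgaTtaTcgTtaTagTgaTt
ATP6AP2: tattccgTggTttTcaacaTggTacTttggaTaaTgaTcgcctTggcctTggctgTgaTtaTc
ATP6V1A: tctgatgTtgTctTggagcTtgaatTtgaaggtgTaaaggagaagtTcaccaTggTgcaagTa
ATP6V1F: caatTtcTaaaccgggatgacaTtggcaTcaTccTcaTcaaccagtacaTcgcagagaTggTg
ATP6V1G1: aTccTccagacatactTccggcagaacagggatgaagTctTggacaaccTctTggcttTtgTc

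The V0 and lysosomal windows are dense and the V1 windows sparse. The densest window held 17 such codons in ATP6V0A2, 15 in ATP6V0C and 14 in SCARB2, LAMP2 and ATP6AP2, against 10 in ATP6V1A and ATP6V1F and 9 in ATP6V1G1. Over all members the median was 14 for V0 (range 11 to 17), 10 for V1 (8 to 13), 14 for the accessory subunits and 14.5 for the lysosomal proteins (14 to 16). The median over 19479 protein-coding genes was 11, and 15.5% of them reached 14. Within V0 the low values belonged to the d subunits, ATP6V0D1 and ATP6V0D2 (12 and 11), which sit on the membrane without spanning it, and to ATP6V0E2 (12), a small membrane subunit.

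Total counts per library ran from 8039176 to 21096586 at NLS, where the labelled libraries were the smaller pair (9531568 and 8039176), and from 34705126 to 52421161 at OMM. The OMM libraries varied more between replicates: edgeR's common coefficient of biological variation was 0.166 at NLS and 0.958 at OMM, and of the genes averaging at least 100 counts, 4.18% of those in the OMM controls and 4.67% in the labelled OMM libraries had a 0 in 1 replicate, against 0 at NLS. Of 9 genes that mark HEK293T, all were detected at NLS and PAX2 was at 0 in OMM control 4 and OMM labelled 3, while 8 markers of other cell types summed to at most 3.57 CPM (counts scaled to the size of the library) in any library. The summed HEK293T markers were at 900 and 944 CPM in the NLS controls and 348 and 311 CPM in the labelled NLS libraries, and 7 of the 9 were lower by the edgeR test used for the members. Whether separate cultures stand behind the libraries is not stated, and the p-values then reflect only how these libraries scatter, which may be technical. Counts are shares of a library from bulk cells, so fewer cells holding an RNA and less of it per cell cannot be told apart.

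In the nucleus, most of the pump and lysosomal messages made up a smaller share of the labelled libraries than of the controls. Of the 29 members tested at NLS, 18 were lower and 2 higher at an adjusted p under 0.05 (edgeR quasi-likelihood F test, adjusted over all genes), where 28.5% of all 20858 tested genes were lower and 28.8% higher. The unadjusted threshold gave the same counts, 18 and 2, against 30.4% and 32.2% of all genes, and DESeq2 gave 17 lower and 2 higher, against 19.5% and 21.3%. Both labelled libraries lay below both controls for 21 members and above both for 4, against 37.7% and 45.1% of tested genes. The median log2 fold change of labelled over control was -1.03 over the members and 0.14 over all tested genes. All 32 members together took 0.178% and 0.180% of the counts of the NLS controls, against 0.137% and 0.139% of those of the labelled pair. Scaling by library size alone shifted the all-gene median to 0.66. The median of the 27 members tested in both compartments went from -1.07 to -0.55 and stayed below 0, though the split over all genes then moved to 9122 higher and 3351 lower from 5999 and 5945, and the members' split to 6 higher and 17 lower. The lower total counts of the labelled NLS libraries and the lower HEK293T markers moved with this result, and their part in it was not tested.

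At the outer mitochondrial membrane the members' median log2 fold change was 0.16, against -0.00 over all tested genes, and the spread between libraries was wide. None of 27 tested members passed edgeR's adjusted threshold, where 0.139% of all 14438 tested genes were higher and 0.0554% lower. At an unadjusted p under 0.05, 5 members were higher (ATP6AP2, ATP6V0A2, ATP6V0E2, LAMP2 and SCARB2) and 1 lower (ATP6V1F), against 5.94% and 4.62% of all genes. DESeq2 on the same counts called these and ATP6AP1, giving 6 higher and 1 lower at its adjusted p, against 6.72% and 5.87% of all genes, and the authors' deposited table also holds 6 members higher and 1 lower. Both labelled libraries lay above both controls for 9 members and below both for 4, against 21.3% and 22.5% of tested genes. The 32 members took 0.230% and 0.262% of the counts of the OMM controls, against 0.326% and 0.332% of those of the labelled pair.

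The difference between the compartments was tested directly as the interaction in a joint fit of the 8 libraries, OMM effect minus NLS effect. That fit gave each gene the same dispersion in both compartments, with a common coefficient of biological variation of 0.768, between the 0.166 of NLS and the 0.958 of OMM. The standard error of the interaction was below that of the OMM effect alone for some members, such as ATP6V0A2 (0.24 against 0.33) and SCARB2 (0.21 against 0.24). It was above it for others, such as LAMP2 (0.27 against 0.24). The interaction p-values may therefore be too small. Of 30 members tested, 12 were higher and 0 lower, against 6.73% and 1.41% of all 23178 tested genes. At an unadjusted p under 0.05, 16 members were higher and 1 lower, against 15.3% and 7.75% of all genes, and DESeq2 called 13 higher and 1 lower, against 9.85% and 11%. Over the 27 members tested in both compartments the median interaction was 1.08, against -0.11 over all tested genes. The count rested on scaling and on the NLS libraries: 5 members were called with RLE factors or with library size alone, which moved the median of all genes to -0.52 and -0.57, and the calls over all genes from 1561 higher and 326 lower to 626 and 372 or to 584 and 381. Without either labelled NLS library 4 were called, ATP6V0C, LAMP2, SCARB2 and ATP6AP2, and without NLS control 1 or control 3 no gene of the whole table was called. Compartment cannot be told apart from library kit and RNA selection, or from the ribominus (NLS) and trizol (OMM) preparations named in the sample titles. The NLS libraries were made with a total RNA kit and the OMM libraries with an mRNA kit, although each effect is taken against controls made with the same kit.

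**Figure D1:**
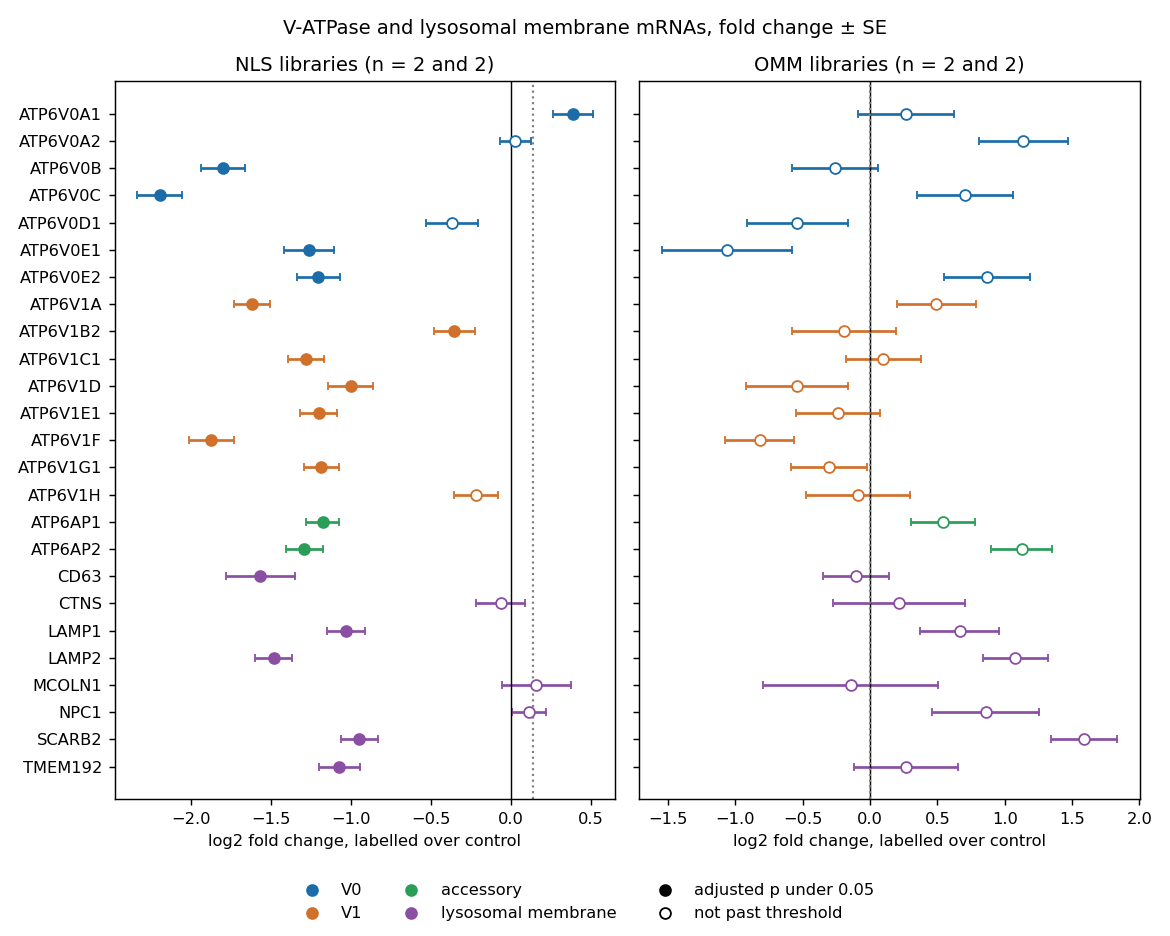
Log2 fold change of labelled over control (bars, standard error) at NLS and at OMM for the 25 members tested in both compartments with counts in every library, grouped by role; the dotted line is the median of all tested genes. At NLS 18 members are called lower, of which ATP6V1B2 turns higher with library size alone, and ATP6V0A1 is called higher, and at OMM SCARB2 lies highest at 1.59 and ATP6V0E1 lowest at -1.06.

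Among the V0 subunits, the proteolipids and the small e subunits were lower in the labelled NLS libraries and the large a subunits ATP6V0A1 and ATP6V0A2 were not. Of 8 tested at NLS, 4 were lower and 1 higher, against 28.5% and 28.8% of all tested genes, with a median of -1.03. ATP6V0C, the c subunit that builds most of the proton-carrying ring, was at 157 and 184 CPM in NLS controls 1 and 3 and at 41.0 and 33.2 CPM in the labelled libraries. The labelled pair lay far below the controls, 4.59-fold lower, for a log2 fold change of -2.20 ± 0.14 (SE, edgeR adjusted p = 2.03e-05). At OMM the same gene was at 52.0 and 43.9 CPM in controls 3 and 4 and at 88.8 and 67.4 CPM in labelled libraries 2 and 3. Both labelled values lay above both controls, at a log2 fold change of 0.70 ± 0.36 (edgeR adjusted p = 0.541). The compartments differed by 2.93 ± 0.32 (edgeR adjusted p = 0.00628), the highest interaction among all members. ATP6V0C shares 862 nt of exon with the protein-coding AC093525.2 on the same strand and has processed pseudogenes, so its counts are uncertain.

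ATP6V0B, the related c″ proteolipid of the ring, was at 61.7 and 56.8 CPM in the NLS controls and 16.8 and 17.2 CPM in the labelled libraries. This was 3.48-fold lower, at -1.80 ± 0.14 (edgeR adjusted p = 3.53e-05), with no overlap. At OMM its controls, 88.6 and 136 CPM, spanned a range that reached across the labelled values of 84.2 and 104 CPM, at -0.26 ± 0.32. Its interaction was 1.57 ± 0.33 (edgeR adjusted p = 0.0383). ATP6V0E2, 1 of the 2 genes for the small hydrophobic e subunit, was at 57.8 and 52.6 CPM in the NLS controls and 23.8 and 24.1 CPM in the labelled libraries, a change of -1.21 ± 0.13 (edgeR adjusted p = 0.000178). In the OMM libraries it was at 86.2 and 83.1 CPM in the controls and at 195 and 115 CPM in labelled libraries 2 and 3, above both controls but far apart from each other. Its OMM log2 fold change was 0.87 ± 0.32 (edgeR adjusted p = 0.374) and its interaction 2.10 ± 0.38 (edgeR adjusted p = 0.0242). It shares 864 nt of exon with ATP6V0E2-AS1 on the opposite strand.

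Its paralog ATP6V0E1 had a value of the other sign at OMM. It was lower at NLS by a similar amount (-1.26 ± 0.16, edgeR adjusted p = 0.000315; 34.8 and 35.3 CPM in the controls, 14.4 and 14.8 CPM labelled). Its OMM levels were 82.0 and 95.0 CPM in the controls and 61.3 and 23.4 CPM in labelled libraries 2 and 3. Both labelled libraries lay below the controls and ATP6V0E1 had the lowest V0 value there, -1.06 ± 0.48 (edgeR adjusted p = 0.497), with most of the drop in labelled library 3. When single OMM libraries were left out, its log2 fold change ran from -1.92 to -0.52. Its interaction was 0.23 ± 0.61 (edgeR adjusted p = 1.00).

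The a subunits couple the ring to V1 and form the path by which protons reach it. The 2 of them with ample counts, ATP6V0A1 and ATP6V0A2, were not lower at NLS. ATP6V0A1 was the V0 gene that rose there: 95.7 and 119 CPM in the controls against 136 and 145 CPM labelled, 1.31-fold higher, at 0.39 ± 0.12 (edgeR adjusted p = 0.0268). That call was lost without control 1, without labelled library 3 and with all 8 libraries in one fit. At OMM its labelled values of 70.7 and 132 CPM straddled the controls of 83.6 and 84.7 CPM, at 0.27 ± 0.36. ATP6V0A2 was at 122 and 116 CPM in the NLS controls and 118 and 125 CPM in the labelled libraries, which overlapped, at 0.03 ± 0.10. The OMM libraries held 40.4 and 51.2 CPM in the controls and 105 and 96.6 CPM labelled, clear of each other, which gave the highest V0 value at OMM without passing the threshold (1.14 ± 0.33, edgeR adjusted p = 0.250). Its interaction passed, at 1.14 ± 0.24 (edgeR adjusted p = 0.0356).

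The remaining V0 genes gave no call. ATP6V0D1, the d subunit that forms the stalk base, was at 50.2 and 45.4 CPM in the NLS controls and 42.2 and 31.7 CPM labelled, at -0.37 ± 0.16 (edgeR adjusted p = 0.0878), a value that turned to 0.15 when libraries were scaled by size alone. At OMM it was at 67.7 and 119 CPM in the controls and 72.5 and 55.7 CPM labelled, at -0.54 ± 0.38, and its interaction of -0.14 ± 0.44 was the lowest of the V0 genes with counts at OMM. ATP6V0A4 and ATP6V0D2, isoforms known from kidney and osteoclasts, were at no more than 1.09 and 0.743 CPM in any NLS library and at 0 in all 4 OMM libraries. Of these, ATP6V0A4 was tested at NLS (-0.85 ± 1.79, edgeR adjusted p = 0.707) and, despite its few counts, entered the V0 medians there.

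Among the V1 subunits, the NLS values were much like those of V0, and the OMM values were mostly below 0. Of 11 tested at NLS, 7 were lower and 1 higher, against 28.5% and 28.8% of all tested genes, with a median of -1.0. At OMM the median over 10 was -0.22, with 0 members above and 3 below both controls, against 21.3% and 22.5% of tested genes. ATP6V1F, the small F subunit of the central rotor stalk, was at 67.4 and 72.1 CPM in the NLS controls and 20.3 and 17.7 CPM labelled, 3.67-fold lower, the lowest V1 value at -1.87 ± 0.14 (edgeR adjusted p = 3.02e-05). In the OMM libraries it was at 160 and 199 CPM in the controls and 98.7 and 105 CPM labelled, lower in both labelled libraries, at -0.82 ± 0.26 (edgeR adjusted p = 0.288, unadjusted p = 0.0122). The labelled libraries thus held less of ATP6V1F than the controls in both compartments, by a smaller factor at OMM: the interaction was 1.08 ± 0.24 (edgeR adjusted p = 0.0403).

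ATP6V1A, the catalytic A subunit that binds ATP, was the V1 gene with the highest value at OMM. It was at 236 and 203 CPM in the NLS controls and 69.2 and 73.7 CPM labelled, 3.07-fold lower, at -1.62 ± 0.11 (edgeR adjusted p = 2.43e-05). At OMM labelled library 2 (157 CPM) sat at the level of controls 3 and 4 (144 and 157 CPM) while labelled library 3 reached 267 CPM, at 0.49 ± 0.30 (edgeR adjusted p = 0.607). Its interaction was 2.13 ± 0.35 (edgeR adjusted p = 0.0183). ATP6V1C1, the C subunit that bridges V1 and V0, was at 100 and 105 CPM in the NLS controls and 40.4 and 44.3 CPM labelled (-1.28 ± 0.11, edgeR adjusted p = 5.83e-05). At OMM its controls of 89.8 and 102 CPM overlapped the labelled values of 98.0 and 107 CPM, at 0.10 ± 0.28, and its interaction was 1.40 ± 0.21 (edgeR adjusted p = 0.0139).

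The peripheral stalk subunits ATP6V1E1 and ATP6V1G1 and the rotor subunit ATP6V1D were also lower at NLS, at -1.20, -1.19 and -1.0. At OMM their log2 fold changes were -0.24, -0.30 and -0.54, none past the threshold, and their interactions of 0.98, 0.90 and 0.48 did not pass either (edgeR adjusted p from 0.120 to 0.521). ATP6V1B2, the widely expressed B subunit, was called lower at NLS by the smallest amount, -0.35 (edgeR adjusted p = 0.0445), a direction that turned to 0.17 with library size alone and a call that was lost with RLE factors, with DESeq2, with no filter, with all 8 libraries in one fit, without control 3 and without either labelled library. ATP6V1H, the regulatory H subunit, was at -0.22 at NLS (edgeR adjusted p = 0.204) and -0.09 at OMM.

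The tissue-restricted V1 isoforms had low levels, below 10 CPM in every library. ATP6V1B1, the B isoform known from kidney intercalated cells, was called higher at NLS, from 3.20 and 2.94 CPM in the controls to 6.89 and 8.93 CPM labelled (1.36 ± 0.35, edgeR adjusted p = 0.0113), a call lost without either labelled library and with all 8 libraries in one fit, and at OMM it was at 2.67 CPM in control 3 and 0 in the other 3 libraries. It shares 1676 of its 2688 exon nt with VAX2 on the same strand, so its reads may belong to either gene. ATP6V1E2 was at 8.0 and 8.46 CPM in the NLS controls and 7.15 and 7.99 CPM labelled, and at OMM at 7.97 and 8.16 CPM in the controls and 0 and 4.33 CPM labelled (-1.90 ± 2.71, edgeR adjusted p = 0.934), the lowest V1 value there. Its interaction of -1.77 ± 2.79 was the lowest fitted V1 value among genes with counts in each group. ATP6V1C2 reached at most 3.27 CPM, ATP6V1G2 at most 0.707 CPM, and ATP6V1G3 had 0 counts in all 8 libraries, where 3 counts would correspond to 0.0566 to 0.310 CPM on the same scale.

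**Figure D2:**
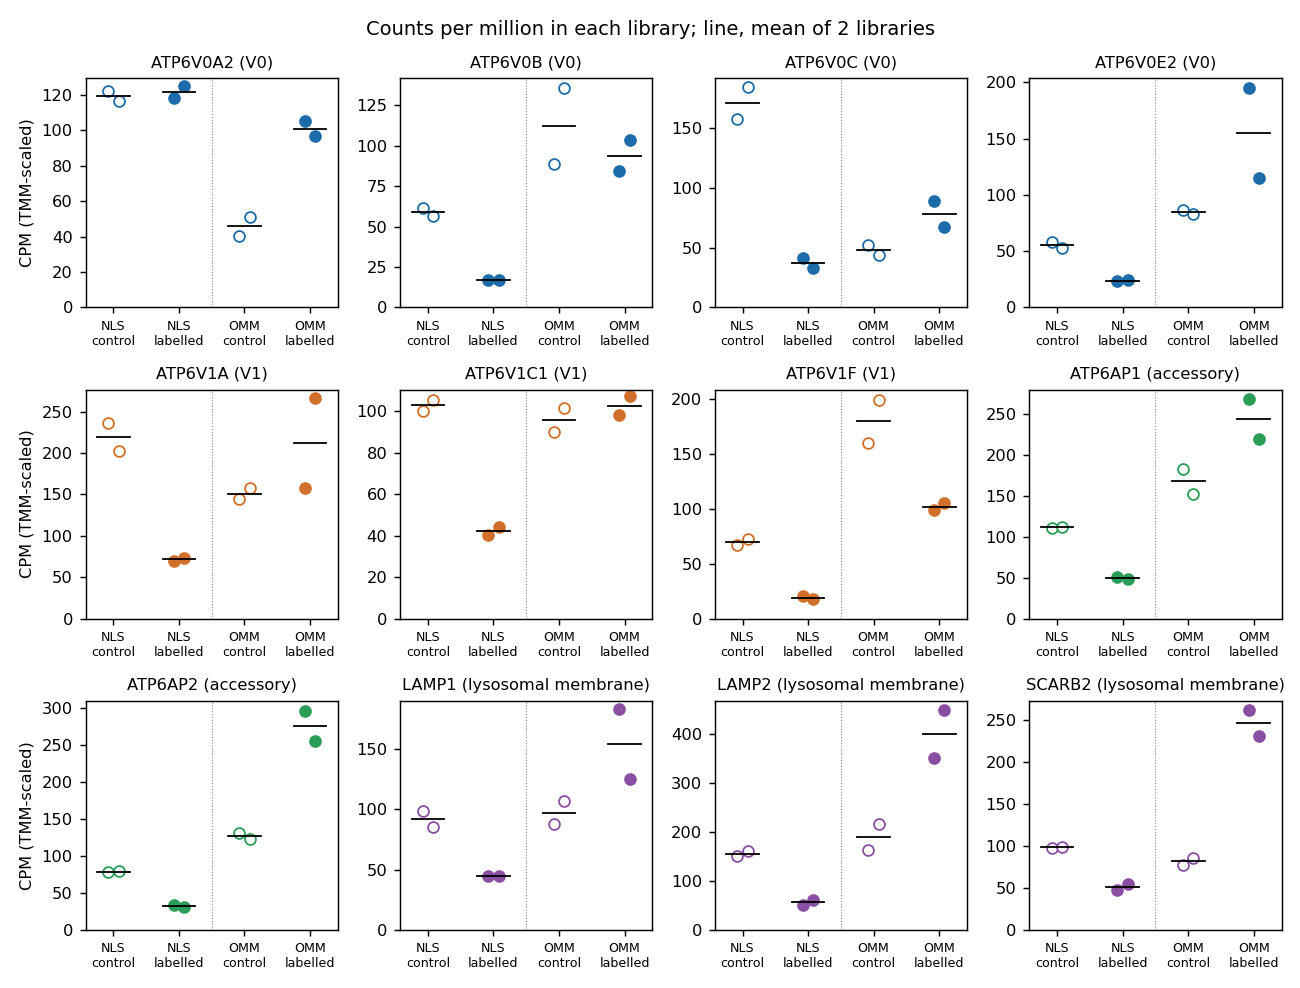
Scaled CPM (linear axis) in each of the 8 libraries for the 12 members whose compartment difference passed the threshold. Each point is 1 library, with controls and labelled libraries apart. In all but ATP6V0A2 the labelled NLS libraries lie below the NLS controls, and at OMM the labelled libraries lie above both controls for ATP6V0A2, ATP6V0C, ATP6V0E2, ATP6AP1, ATP6AP2, LAMP1, LAMP2 and SCARB2.

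Set against each other, V0 and V1 had nearly the same median at NLS, and the V0 median was above that of V1 at OMM. The median log2 fold change of V0 minus that of V1 was -0.02 at NLS and 0.48 at OMM, or -0.20 and 0.70 when the d subunits were left out of V0. Per library, the mean log2 CPM of V0 minus that of V1 was taken over the 7 V0 and 8 V1 genes with counts in all 8 libraries, a choice made after the values were seen. It was -0.13 and -0.20 for NLS controls 1 and 3, against 0.040 and -0.028 for the labelled libraries, so the labelled pair lay higher by 0.17, with a pooled SD of 0.051 within groups. Over all 11 V1 genes tested at NLS, which adds the low isoforms ATP6V1B1, ATP6V1C2 and ATP6V1E2, the sign turned: 1.18 and 0.98 for the controls, against 0.81 and 0.71 for the labelled libraries. At OMM, where the same 7 and 8 genes entered, it was -0.60 and -0.41 for controls 3 and 4, against -0.01 and -0.36 for labelled libraries 2 and 3, an increase of 0.32 with a pooled SD of 0.196, and labelled library 3 lay close to control 4. The OMM difference of medians rested on labelled library 3: it was -0.045 without that library and 0.72 without labelled library 2. The per-library difference of means was instead carried by labelled library 2 (-0.01). The 2 measures thus leaned on opposite labelled libraries, and neither backs the other. At NLS the difference of medians lay between -0.36 and 0.079 when single libraries were left out. The members were chosen with results of these data known, so no p-value is attached to these contrasts.

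**Figure D3:**
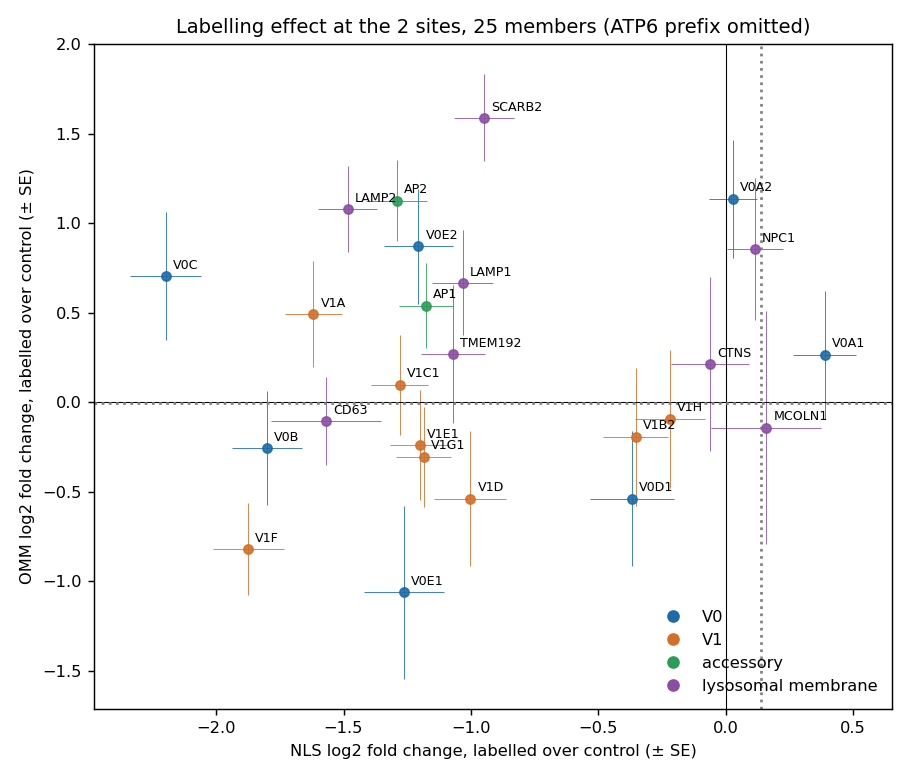
Log2 fold change at OMM (y axis) against that at NLS (x axis) for the same 25 members, coloured by role. V0, accessory and lysosomal genes with values above 0.5 at OMM include SCARB2, ATP6V0A2, ATP6AP2 and LAMP2, whereas no V1 gene exceeds the 0.49 of ATP6V1A. The lowest OMM value plotted is also that of a V0 gene, ATP6V0E1 (-1.06).

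Both accessory subunits were lower at NLS and had both labelled libraries above both controls at OMM. Over all tested genes these shares were 28.5% and 21.3%. ATP6AP2, also known as the prorenin receptor, a single-span protein needed for assembly of the pump, was at 77.7 and 78.9 CPM in the NLS controls and 33.3 and 30.6 CPM labelled, at -1.29 ± 0.12 (edgeR adjusted p = 7.07e-05). Its OMM levels were 130 and 122 CPM in the controls and 296 and 255 CPM labelled, well clear of the controls, at 1.13 ± 0.23 (edgeR adjusted p = 0.127). Its interaction was 2.44 ± 0.21 (edgeR adjusted p = 0.00386). ATP6AP1, a glycoprotein embedded in V0, went from 111 and 112 CPM to 50.6 and 48.1 CPM at NLS (-1.18 ± 0.10, edgeR adjusted p = 6.16e-05). At OMM it was at 183 and 152 CPM in the controls and 269 and 219 CPM labelled, again without overlap, at 0.54 ± 0.24 (edgeR adjusted p = 0.481). The compartments differed by 1.74 ± 0.24 (edgeR adjusted p = 0.0114).

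Of the 8 lysosomal membrane genes, 5 were lower at NLS, against 28.5% of all tested genes, with a median of -0.99. At OMM 4 had both labelled libraries above both controls, against 21.3% of tested genes, with a median of 0.47. SCARB2 (LIMP-2), the receptor that carries glucocerebrosidase to lysosomes, was at 97.8 and 99.0 CPM in the NLS controls and 47.2 and 54.9 CPM labelled, at -0.95 ± 0.12 (edgeR adjusted p = 0.000292). In the OMM libraries it was at 77.7 and 86.0 CPM in the controls and 262 and 231 CPM labelled. The labelled pair was 3.01-fold higher, 1.59 ± 0.24 on the log2 scale, the highest OMM value of all members, with an edgeR adjusted p of 0.0552. Its log2 fold change stayed positive when any 1 OMM library was left out. Those fits leave 1 library in an arm, so they are read for the size of the change and not for calls. Its interaction was 2.56 ± 0.21 (edgeR adjusted p = 0.00367).

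LAMP1 and LAMP2 are the abundant, heavily glycosylated proteins that line the lysosomal membrane. LAMP2 was at 150 and 162 CPM in the NLS controls and 51.4 and 60.2 CPM labelled, at -1.48 ± 0.12 (edgeR adjusted p = 3.72e-05). Its OMM levels were 162 and 216 CPM in the controls and 351 and 449 CPM labelled, at 1.08 ± 0.24 (edgeR adjusted p = 0.149), and its interaction was 2.59 ± 0.27 (edgeR adjusted p = 0.00568). LAMP1 followed with smaller values. It was at 98.8 and 85.2 CPM in the NLS controls and 45.0 and 44.9 CPM labelled (-1.03 ± 0.12, edgeR adjusted p = 0.000220), and at 88.0 and 107 CPM in the OMM controls and 183 and 126 CPM labelled (0.67 ± 0.29, edgeR adjusted p = 0.481). Neither pair overlapped, and the interaction was 1.73 ± 0.32 (edgeR adjusted p = 0.0270).

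CD63, a tetraspanin of late endosomes and lysosomes, had the lowest lysosomal value at NLS. It went from 50.6 and 75.1 CPM in the controls to 23.6 and 18.7 CPM labelled, at -1.57 ± 0.22 (edgeR adjusted p = 0.000529). At OMM its controls of 202 and 157 CPM overlapped the labelled values of 176 and 158 CPM (-0.11 ± 0.25), and its interaction of 1.48 ± 0.35 missed the threshold (edgeR adjusted p = 0.0519). TMEM192, a lysosomal protein often used to isolate the organelle, was at 66.9 CPM in both NLS controls and 33.7 and 29.9 CPM labelled (-1.07 ± 0.13, edgeR adjusted p = 0.000228). At OMM its labelled values of 61.2 and 123 CPM straddled the controls of 76.6 and 76.4 CPM.

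The multi-span transporters and channels NPC1, MCOLN1 and CTNS gave no call in either compartment. NPC1, which exports cholesterol from the lysosome, was at 67.9 and 75.2 CPM in the NLS controls and 76.8 and 78.2 CPM labelled, at 0.11 ± 0.11 (edgeR adjusted p = 0.393). At OMM it was at 47.4 and 30.8 CPM in the controls and 66.8 and 75.0 CPM labelled, without overlap, at 0.86 ± 0.40 (edgeR adjusted p = 0.506). NPC1 shares 604 nt of exon with RMC1 on the opposite strand. MCOLN1, the lysosomal calcium channel TRPML1, had the highest lysosomal value at NLS (0.16 ± 0.22, edgeR adjusted p = 0.549; 20.5 and 15.3 CPM in the controls, 22.0 and 18 CPM labelled) and the lowest at OMM (-0.14 ± 0.65; 21.2 and 18.1 CPM in the controls, 23.6 and 12 CPM labelled), with overlap in both. Its interaction of -0.27 ± 0.65 was also the lowest of the lysosomal genes. CTNS, the cystine transporter, was at -0.06 ± 0.15 at NLS and 0.21 ± 0.49 at OMM, and its OMM control 3 (29.3 CPM) lay well below control 4 (73.3 CPM).

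Per kilobase of annotated exon, the highest levels belonged to small subunits. In the NLS controls ATP6V0C stood at 114 ± 12.6 CPM per kilobase (SD, n = 2), ATP6V1F at 88.4 ± 4.23 and ATP6V1G1 at 86.0 ± 4.10, of which the last 2 lay within their spread of each other. ATP6V1A followed at 42.8 ± 4.61 and ATP6V1E1 at 31.4 ± 1.86. In the OMM controls ATP6V1F led at 228 ± 35.3, then ATP6V1G1 at 104 ± 20.8, CD63 at 68.2 ± 11.9 and ATP6V0E1 at 54.5 ± 5.69, while ATP6V0C was at 32.0 ± 3.86. Lengths were those of all annotated exons, so genes with many annotated transcripts, such as SCARB2, read low on this scale.

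Other genes of the pump and of the lysosome were read from lists of their pathways. Of 12 tested genes for assembly and regulation of the V-ATPase, 2 were higher at NLS and 1 lower, against 28.8% and 28.5% of all tested genes, with a median of 0.09. VMA21, an assembly factor of V0 in the endoplasmic reticulum, was lowest at -1.70 ± 0.15, and TCIRG1, the a3 subunit gene whose symbol the rule does not match, was highest at 0.95 ± 0.31. At OMM none passed with edgeR. At an unadjusted p under 0.05, 3 were higher and 1 lower there, against 5.94% and 4.62% of all genes. DESeq2 gave 3 higher and 0 lower, against 6.72% and 5.87%. VMA21 had the highest mean level of the list there (0.83 ± 0.24, edgeR adjusted p = 0.249). The interaction was passed by 2 of the 12, against 6.73% of all tested genes that were higher in it, NCOA7 (2.64 ± 0.57), a TLDc-domain protein, and VMA21 (2.55 ± 0.27). Of 17 genes for nutrient sensing at the lysosome, 10 were lower and 3 higher at NLS, with a median of -0.76, beside the 28.5% lower and 28.8% higher over all tested genes. The lowest were RRAGA (-2.01 ± 0.12), a Rag GTPase that recruits mTORC1, BORCS6 (-1.74 ± 0.36) and LAMTOR2 (-1.39 ± 0.19). At OMM none of the 17 passed with edgeR, and RRAGA was at -0.45 ± 0.30. The unadjusted threshold gave 2 higher and 2 lower at OMM, against 5.94% and 4.62% of all genes. DESeq2 gave the same counts, against 6.72% and 5.87%. RRAGC (2.38 ± 0.36) and RRAGA (1.59 ± 0.25), 2 of the 17, passed the interaction as higher, against 6.73% of all tested genes. At an unadjusted p under 0.05, 4 were higher and 1 lower in it, against 15.3% and 7.75%. DESeq2 gave 3 higher and 2 lower, against 9.85% and 11%.

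Of 30 other lysosomal genes, which are membrane proteins apart from the soluble NPC2, 12 were lower and 8 higher at NLS, beside the same 28.5% and 28.8% of all tested genes, with a median of -0.10. LAPTM4A (-2.50 ± 0.14) and LAPTM4B (-2.31 ± 0.11) were lowest, followed by NPC2 (-1.74 ± 0.23), which passes cholesterol to NPC1. None of the 30 passed with edgeR at OMM. At an unadjusted p under 0.05, 4 were higher and 0 lower there, against 5.94% and 4.62% of all genes. DESeq2 gave the same counts, against 6.72% and 5.87%. There CD164, a sialomucin of endosomes and lysosomes, had the highest mean level (1.18 ± 0.25, edgeR adjusted p = 0.130). In the interaction 6 of 30 were higher and 0 lower with edgeR (8 and 2 at an unadjusted p under 0.05, 6 and 3 with DESeq2), beside 6.73% and 1.41% of all tested genes (15.3% and 7.75% unadjusted, 9.85% and 11% with DESeq2), led by OSTM1 (2.73 ± 0.56), the partner of the chloride transporter CLCN7, LAPTM4A (2.60 ± 0.20) and TMEM106B (2.52 ± 0.22).

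The density of middle-thymine codons ran with the OMM values in the same way among the members as among all genes. At OMM the 15 tested members with a window of at least 14 such codons had a median log2 fold change of 0.54, and 11 were above 0. The 12 with at most 13 had a median of -0.22, and 4 were above 0. Over all tested protein-coding genes the same cut gave 0.54 for 1338 genes and -0.02 for 10819, with 72.0% and 49.1% above 0. At NLS it gave -1.05 and -1.0 among members and -0.24 and -0.26 among all protein-coding genes, so the members lay below other coding genes on both sides of the cut. The cut at 14 was chosen after the role groups had been seen.

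Length ran with the values as well. At OMM the log2 fold change ran with the length of the 3′ UTR across the 27 tested members (Spearman's rho 0.64) and across 12157 protein-coding genes (0.30), and with the middle-thymine count at 0.46 and 0.19. At NLS it ran with coding length across the 29 tested members (rho 0.59) and across 13487 protein-coding genes (0.28), and with the number of exons at 0.58 and 0.23. ATP6V0A1, ATP6V0A2 and NPC1, none of them lower at NLS, have 21, 20 and 25 exons in their annotated transcripts, and ATP6V0C and ATP6V1F, the 2 lowest, have 3 and 2. Other members went against this order: ATP6V1A has 15 exons and was at -1.62, and ATP6V1E2 has 2 and was at -0.12. These are descriptions over genes measured in the same libraries, and genes are not independent replicates.

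**Figure D4:**
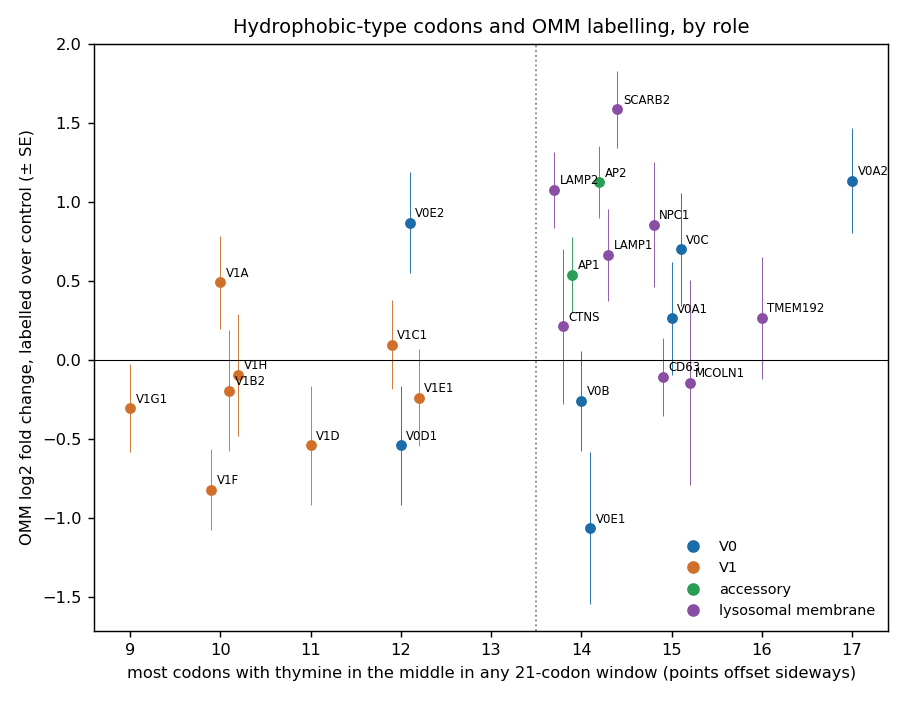
Log2 fold change at OMM (y axis, with standard error) against the highest number of codons with thymine in the middle in any window of 21 codons (x axis) for the 25 members, coloured by role and offset to the side where they share a value; the dotted line separates 13 from 14. The plotted V1 genes lie at 12 or fewer on the x axis with values from -0.82 to 0.49. ATP6V1E2, at 13 and -1.90, is not plotted. SCARB2, ATP6V0A2, ATP6AP2 and LAMP2 lie at 14 or more with values above 1. Below 0 at 14 or more lie ATP6V0E1 (-1.06, the lowest point), ATP6V0B (-0.26), MCOLN1 (-0.14) and CD63 (-0.11).

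A promoter motif, which the choice of members did not use, was found in some of the members. Lysosomal genes are known targets of TFEB and related factors, which bind E-boxes with the core CACGTG. The palindrome CACGTG, which reads the same on both strands, was searched from 250 bases before to 50 after each start site in RefSeq promoters on GRCh38.p14, together with the longer palindrome TCACGTGA, which contains it. Promoters were found for 24 of 32 members, with a single promoter kept for each. The 35116 promoters set beside them were not reduced in this way or limited to tested genes, so the sets are unlike. CACGTG occurred in 7 of them, 29.2%, against 7.26% of 35116 promoters: ATP6V0B, ATP6V0D1, ATP6V0E2, ATP6V1G1, CD63, LAMP1 and MCOLN1. TCACGTGA occurred in 4 of the members' promoters, 16.7%, against 0.980% of all: ATP6V0D1, ATP6V1G1, LAMP1 and MCOLN1. Windows of 30 bases on the gene's strand, motif in capitals, are shown for 3 of these 4, among them LAMP1, which had the most CACGTG matches, 6. They lie at chr9:114587699-114587728 (+, ATP6V1G1), chr19:7522598-7522627 (+, MCOLN1) and chr13:113297199-113297228 (+, LAMP1).
ATP6V1G1: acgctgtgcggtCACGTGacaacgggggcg
MCOLN1: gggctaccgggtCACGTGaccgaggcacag
LAMP1: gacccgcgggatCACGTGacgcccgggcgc

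Of the 7 members with CACGTG, 5 were called lower at NLS, beside 18 of all 29 tested members and 28.5% of all tested genes. These were ATP6V0B (-1.80), CD63 (-1.57), ATP6V0E2 (-1.21), ATP6V1G1 (-1.19) and LAMP1 (-1.03). ATP6V0D1 (-0.37) and MCOLN1 (0.16) were not called. At OMM, where none was called, the 7 ran from -0.54 for ATP6V0D1 to 0.87 for ATP6V0E2. A match is a description of these letters and not a measured binding site.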

How the data were processed

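RNA captured by APEX-seq was read as 8 libraries. The deposited tables hold the authors' read counts for each gene, from STAR alignment and HTSeq (builds GRCh38.p13 and hg38, with Trimmomatic, SAMtools and bedtools also named), per the submitters' processing notes (no tool versions or strand setting are given in the sources used here). The authors' log2 fold change for each gene was deposited as well. Their deposited p-value matched an adjusted p from DESeq2 1.42.0 run here. Per the labels, NLS libraries used a SMARTer stranded total RNA kit and OMM libraries a TruSeq stranded mRNA kit. The sample titles name ribominus for NLS and trizol for OMM. The series text and the labels other than titles differ on how captured RNA was released, so that step is not settled.

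Columns were matched to a group by name and are called by the number in the name, which differs from the titles; 6 columns matching no sample were not used. Tests used edgeR 4.0.16 under R 4.3.3 on the counts (robust quasi-likelihood F test, TMM, filterByExpr minimum count 10, prior count 0.125, two-sided, Benjamini-Hochberg over all tested genes, threshold 0.05). NLS and OMM were fitted apart, and the compartment difference was the interaction over 8 libraries. SE is the size of the log2 change over the root of F. CPM uses TMM factors of the separate fits. Members with an OMM group at 0 (ATP6V0A4, ATP6V1B1, ATP6V1G2) have no printed interaction. Replicates all differed by more than sampling noise. The separate NLS and OMM fits were also run on simulated counts with the same dispersion for every gene, which the real libraries do not have. The interaction fit was not simulated. A floor of 3 counts covers counting error only.

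Members, lists and comparisons were chosen with earlier results of these data known. Named with full values were, per role and comparison, the highest and lowest tested member, the accessory pair and every member past the OMM or interaction threshold; of each list, up to 3 genes past the threshold with the largest change, or else the gene with the highest level. Planned protein features were not analysed here; coding-sequence windows (GENCODE 29) and promoter motifs (RefSeq, GRCh38.p14) were chosen after the files were seen. Of 32 members, 19 share exon sequence with another gene and 4 have processed pseudogenes, so their counts are uncertain where the strand setting or read assignment could split them.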

Additional observations from a re-analysis of the deposited data

Results flagged for a closer look

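In the main setting of the interaction test, the labelling effect was higher at OMM than at NLS for 12 of 30 tested members, against 6.73% of all tested genes. With RLE factors or library size alone 5 members were called, and the calls also depended on single NLS libraries. The joint fit gave each gene the same dispersion in both compartments, although OMM varied more, so the calls may be too many. The log2 difference, OMM minus NLS, was 2.93 for ATP6V0C, 2.59 for LAMP2, 2.56 for SCARB2, 2.44 for ATP6AP2, 2.13 for ATP6V1A and 2.10 for ATP6V0E2. It was 1.74 for ATP6AP1, 1.73 for LAMP1, 1.57 for ATP6V0B, 1.40 for ATP6V1C1, 1.14 for ATP6V0A2 and 1.08 for ATP6V1F. Of the 12, 11 were called lower at NLS, and ATP6V0A2 was not.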

How the results depend on the processing

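With library size alone at NLS, 6 members were higher, over all genes 9122 were higher and 3351 lower, and ATP6V0D1 (0.15), ATP6V1B2 (0.17), ATP6V1E2 (0.40), ATP6V1H (0.30) and CTNS (0.46) changed sign. With all 8 libraries in one fit, NLS gave 0 members higher and 212 genes higher and 2180 lower, and OMM 3 members higher and 199 and 101 genes. At OMM, library size alone gave 1 member and 48 and 16 genes, DESeq2 6 and 1 members and 1007 and 879 genes, no filter 3 members and 321 and 145 genes, and a fit that was not robust 1 and 0 genes. The interaction gave 5 members with RLE factors or library size alone (626 and 584 genes higher), 1 member lower and 2232 genes lower with DESeq2, and 676 genes lower with no filter. V0 minus V1 was -0.53 at NLS with no filter, and -0.20 at NLS and 0.70 at OMM without the d subunits.

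Leaving out single libraries gave these ranges. At NLS, 0 to 3 members and 3077 to 8425 genes were higher, and ATP6V0A2 ran from -0.0093 to 0.092, ATP6V0A4 from -6.07 to 0.23, CTNS from -0.14 to 0.012 and MCOLN1 from -0.036 to 0.38. At OMM, 2 to 3 members were higher and 0 to 1 lower, with 128 to 335 genes higher and 76 to 279 lower. There ATP6V0A1 ran from -0.24 to 0.65, ATP6V0B from -0.54 to 0.088, ATP6V1B2 from -0.61 to 0.40, ATP6V1C2 from -7.52 to 7.65, ATP6V1E1 from -0.53 to 0.14, ATP6V1H from -0.28 to 0.088, CD63 from -0.27 to 0.083, CTNS from -0.30 to 1.03, MCOLN1 from -0.71 to 0.27 and TMEM192 from -0.31 to 0.69. In the interaction, 0 to 16 members were higher and 0 to 1 lower, with 0 to 2748 genes higher and 0 to 1454 lower, and ATP6V0D1 ran from -0.49 to 0.29 and MCOLN1 from -0.88 to 0.13. V0 minus V1 spanned -0.36 to 0.079 at NLS, and at OMM -0.045 to 0.79. The causes were not tested. With 1 sample left in an arm, that sample is assumed to vary like the other group.

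With the replicate block at NLS, 2 members were higher and 17 lower, and ATP6V1B2 was no longer called (adjusted p = 0.0537); the library numbers do not pair the samples (correlation of deviations -0.02). At OMM and for the interaction, no paired analysis was possible because the OMM arms share 1 number. With only V0 and V1 members that have counts in all 8 libraries, a setting added after seeing the data, V0 minus V1 was -0.013 at NLS and 0.48 at OMM. Depth limits ATP6V0A4, ATP6V0D2, ATP6V1G2 and ATP6V1G3, which had few or no counts.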
